A study of Homo sapiens with 20 samples.

Results

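The TALE homeobox genes examined here were PKNOX1, PKNOX2, MEIS1, MEIS2, MEIS3, PBX3 and TGIF1, and their chromatin loops were followed in 4 human glioblastoma (GBM) cell lines. A loop was counted at a gene when 1 of its anchors, segments of about 5 kb, lay within 3 kb of an annotated start of a transcript of that gene in hg19. By this rule 227 of the 572000 anchor pairs listed in any cell line belonged to the family, and they came from 6 of the 7 genes. PKNOX1 had none. Of all 20149 protein-coding genes, 10019 had at least 1 such pair.

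H4 and 42MGBA are GBM cell lines in which the tumor left a truncating mutation of STAG2, a subunit of the cohesin ring that holds chromatin loops. Gene editing repaired the STAG2 mutation in the isogenic derivatives H4 88-1 (from H4) and 42MGBA 53-1 (from 42MGBA), and each system is represented by a single derivative. Hi-C, which counts ligations between DNA segments that were neighbors in the folded nucleus, was made from 2 biological replicates of each line. The authors pooled them and deposited the 300000 strongest anchor pairs of each line with a signal called here loop strength. With 1 list per line there is no spread between replicates, so that every difference below is a difference between 2 lists and carries no test. With 1 derivative per system, STAG2 status and the separate growth of the lines cannot be told apart.

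TALE proteins carry a homeodomain with a short insertion between its first helices. PBX proteins and the MEIS and PKNOX (also called PREP) proteins bind DNA as partners of each other and of HOX proteins, and MEIS and PKNOX compete for the same PBX surface. TGIF proteins are TALE repressors that restrain SMAD-driven transcription and retinoid responses. Members of the family pattern the limb, the eye, the hindbrain and blood lineages, and several keep roles in neural progenitors.

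A pair that was missing from a list had a strength below the weakest one listed, which was 4.14 in H4 and 4.44 in H4 88-1, and 4.49 in 42MGBA and 4.28 in 42MGBA 53-1. A ratio against a missing pair was taken against that lowest strength and is a bound. Of the 227 pairs, 126 were listed in H4 and 145 in H4 88-1, and 87 in 42MGBA and 148 in 42MGBA 53-1. Neighboring pairs, whose anchors lay within 10 kb of each other at both ends, were joined into a loop patch. The pairs of a patch share or adjoin each other's anchors and are not independent observations.

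The strongest family loop lay at TGIF1 in 3 of the 4 lines, with a strength of 9.36 in H4, 9.54 in H4 88-1 and 8.96 in 42MGBA. In 42MGBA 53-1 the MEIS2 loop was higher, at 9.99, and TGIF1 reached 8.65. PKNOX2 stood lowest of the 5 genes listed in H4, at 4.15, and came after TGIF1 and MEIS3 in H4 88-1, at 7.36. In 42MGBA it was above PBX3 alone, at 4.99, and in 42MGBA 53-1 it came after MEIS2 and TGIF1, at 6.42. Each of these orders rests on 1 pooled list, and no spread is at hand to say which neighbors in the order differ.

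**Figure D1:**
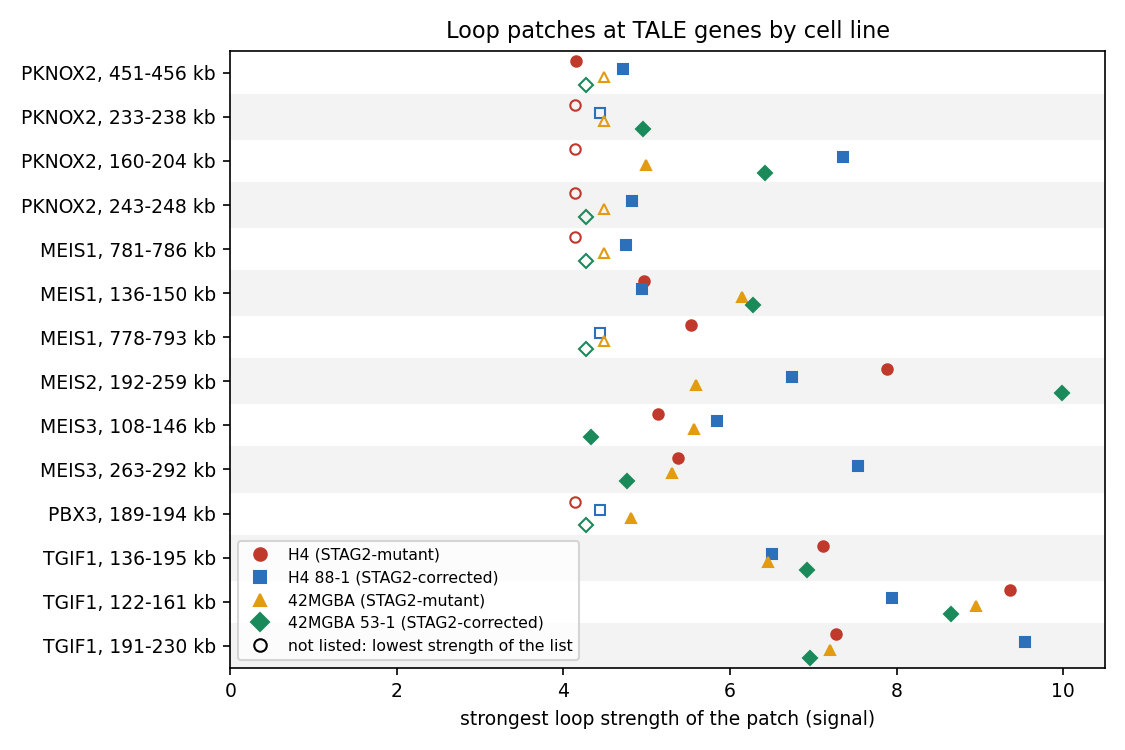
Strongest loop strength (signal, horizontal axis) of each loop patch at a TALE gene in the 4 cell lines, with the range of loop sizes beside the gene name. Filled marks are listed values and open marks stand at the lowest strength of a list that does not hold the patch; 3 patches of a single pair are left out. The MEIS2 patch ran from 5.59 in 42MGBA to 9.99 in 42MGBA 53-1, and the PKNOX2 patch of 160 to 204 kb was absent from the H4 list.

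Among the 183 family pairs listed in H4 or H4 88-1, 9 were at least 1.5-fold stronger in H4 88-1 and 0 were weaker by as much. Over all anchor pairs of this system 2.92% passed in the first direction and 0.722% in the second. The 9 pairs belonged to PKNOX2 (7) and MEIS3 (2). The count did not hold its size under other scalings, with 4 stronger and 1 weaker when the genome-wide or the chromosome median was subtracted, 2 and 2 with the size-matched median, and 1 and 0 among pairs listed in both lines. Among 166 family pairs of the 42MGBA system, 8 were at least 1.5-fold stronger in 42MGBA 53-1, all at MEIS2, and 0 were weaker by that factor. With these settings 12 to 14 were stronger after a median was subtracted and 5 among pairs listed in both lines, and 0 were weaker. There the background was 0.485% stronger and 3.4% weaker. For patches, the strongest pair of each line was compared, which need not be the same pair in both lines. By this ratio 1 of 13 family patches in the H4 system (PKNOX2) and 1 of 12 in the 42MGBA system (MEIS2) were past 1.5-fold, both higher after correction of STAG2. At the single strongest pair of a patch over the 4 lines, the longer MEIS3 patch also passed in the H4 system, at 1.54-fold. Patches of all protein-coding genes passed in 4.66% (stronger) and 0.848% (weaker) of cases in H4 88-1, and in 0.634% and 4.38% of cases in 42MGBA 53-1. A count of 1 patch is too small to set against these shares.

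The study compared loops by regression and a z-score after merging the 100000 strongest pairs of each line. It does not state the form of that regression, so the score computed here need not match the study's own. By the score used here, with the study's two-sided 0.05 cutoff, 0 of 55 merged family pairs passed in the H4 system. The background there was 1.94% stronger and 2.17% weaker in H4 88-1. When the score was taken from log2 ratios instead, 2 family pairs passed as stronger in H4 88-1. In the 42MGBA system 8 of 51 passed as stronger in 42MGBA 53-1, all at MEIS2, and 0 as weaker, beside 1.61% and 2.45% of all merged pairs. The score ranks pairs within 2 pooled lists and is no test against replicates. Its counts over all merged pairs differed from the loop counts that the study reports for these systems. Over all family pairs the median log2 ratio of the STAG2-corrected to the STAG2-mutant line was 0.09 in the H4 system, against 0.09 for all pairs, and 0.06 in the 42MGBA system, against -0.08 for all pairs. The family and all pairs thus had equal medians in the H4 system, to 2 decimals, and the family median lay above that of all pairs in the 42MGBA system.

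**Figure D2:**
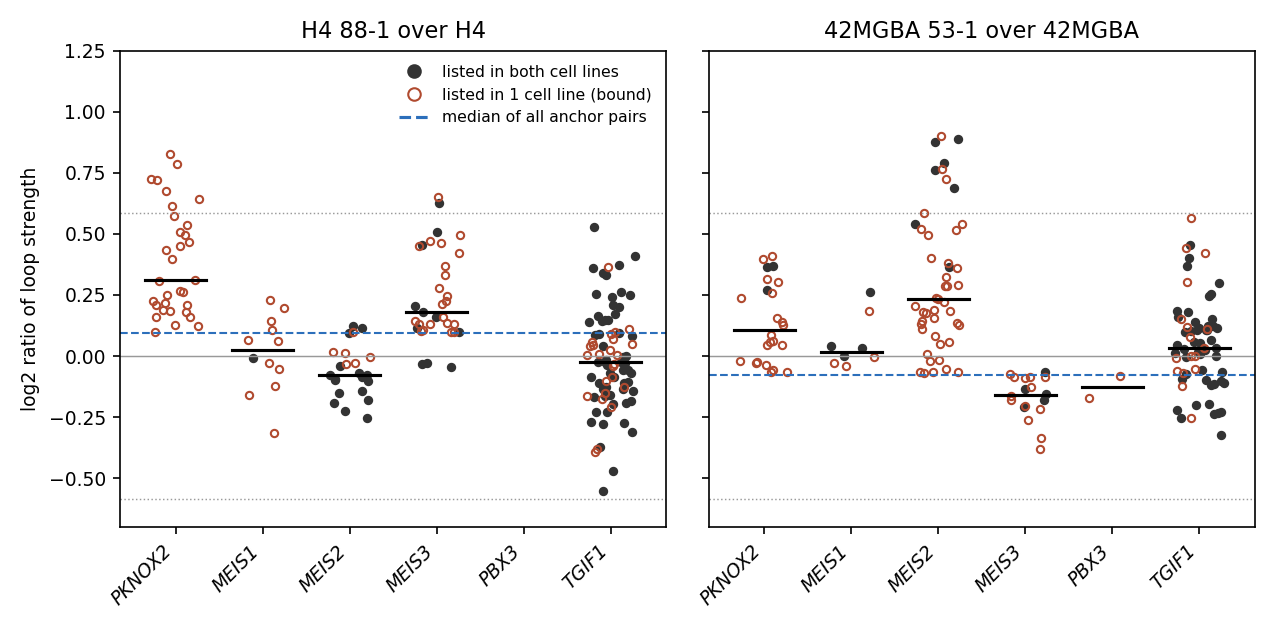
Log2 ratio of loop strength (STAG2-corrected over STAG2-mutant, vertical axis) of each anchor pair at 6 TALE genes in the H4 system (left) and the 42MGBA system (right). Filled points were listed in both lines, open points in 1 line and are bounds, black bars are gene medians, the dashed line is the median of all anchor pairs and dotted lines mark 1.5-fold. PKNOX2 medians were 0.31 and 0.10, MEIS2 medians -0.08 and 0.23, and MEIS3 medians 0.18 and -0.16; PBX3 had no pair in the H4 system.

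PKNOX2, also called PREP2, encodes a MEIS-related partner of PBX proteins. Its record, ENSG00000165495.16_8, covers 269 kb of the plus strand at chr11:125034583-125303285. It had 38 anchor pairs, of which 1 was listed in H4 and 31 in H4 88-1, and 3 in 42MGBA and 24 in 42MGBA 53-1. In both systems the STAG2-corrected line thus held many more of them than the STAG2-mutant line. Over all pairs each line listed 300000, out of 386725 in the H4 system and 395862 in the 42MGBA system. Most PKNOX2 pairs adjoin each other, however. The main PKNOX2 patch joined the start of the gene to a point inside it and held 31 of the 38 pairs, of 160 to 204 kb.

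The strongest pair of this patch, chr11:125027258-125032268 with chr11:125211713-125216424, was not listed in H4 and had a strength of 7.36 in H4 88-1, 4.63 in 42MGBA and 5.98 in 42MGBA 53-1. H4 88-1 was therefore at least 1.78-fold above H4, and 42MGBA 53-1 was 1.29-fold above 42MGBA. The left anchor ends 2.32 kb before the first PKNOX2 start and overlaps the divergent transcript PKNOX2-DT. The right anchor lies 177 kb downstream of that start, in intron 3 of the 13-exon transcript PKNOX2-201, with no coding-gene exon. The next anchor inward, chr11:125216425-125221193, overlaps 1 exon of the same transcript.

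In the H4 system all 28 listed pairs of the main patch were found in H4 88-1 alone, so that each ratio is a lower bound. Their median log2 bound was 0.42 and the highest 0.83, against a median of 0.15 over all 47408 pairs of 150 to 210 kb in that system. Those 47408 include pairs listed in H4, unlike the patch. The 7 pairs past 1.5-fold were all lower bounds. None of them reached the cutoff of the z-score used here, the highest score being 1.72. The study, by its own calls, reports a STAG2-regulated loop from the PKNOX2 promoter to a downstream enhancer in both systems. It also reports, from RNA-seq, that PKNOX2 expression was regulated by STAG2 in both. Expression was not analysed here. In the 42MGBA system 21 pairs of the patch were listed and 3 of them in both lines. Those 3 were 4.63, 4.99 and 4.81 in 42MGBA and 5.98, 6.42 and 5.80 in 42MGBA 53-1. Their log2 ratios were 0.37, 0.36 and 0.27, and 15 of the 21 pairs were stronger in 42MGBA 53-1 with a known direction, 0 weaker. A direction was known for pairs listed in both lines and for bounds that point away from 0. A pair listed in 42MGBA 53-1 alone could thus not count as weaker. By this count 13.4% of all chromosome 11 pairs were stronger in 42MGBA 53-1. Anchor pairs of chromosome 11 as a whole had a median log2 ratio of 0.11 in the H4 system and -0.22 in the 42MGBA system. Subtracting the chromosome median moved the PKNOX2 median from 0.10 to 0.33 in the 42MGBA system and from 0.31 to 0.20 in the H4 system.

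Capitals in a printed promoter would mark TGACAG, the letters preferred by MEIS, PKNOX and TGIF proteins, or TGATTGAT, a PBX site, on either strand. The MEIS1 promoter, 250 bases on the plus strand of hg19 at chr2:66660334-66660583, is shown as that of a family member whose start anchor also held a summit, and it holds neither.
MEIS1 promoter: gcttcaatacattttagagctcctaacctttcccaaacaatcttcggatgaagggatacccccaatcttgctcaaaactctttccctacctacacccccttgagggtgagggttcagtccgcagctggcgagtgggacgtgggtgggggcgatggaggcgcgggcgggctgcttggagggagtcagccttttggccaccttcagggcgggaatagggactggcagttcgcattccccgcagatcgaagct
In windows from 250 bases before to 50 after the start, TGACAG was found in 15.0% of 20163 promoters and among the 7 members only at TGIF1, with 1 match. TGATTGAT was found in 0.496% of promoters and in none of the members. The absence of these letters says nothing about binding elsewhere.

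Seen from inside the gene, the promoter was not the only partner. The anchor chr11:125216425-125221193 was paired with 26 anchors in at least 1 list, none of them in H4. In H4 88-1 its strongest partner was the segment before the PKNOX2 start, at 7.14, while a segment over TMEM218, at -68.2 kb from the start, had 6.83. The order was the other way round in the 42MGBA system. The TMEM218 segment, chr11:124963872-124968846, had 5.86 in 42MGBA and 8.82 in 42MGBA 53-1, a log2 difference of 0.59 with a z-score of 2.13. The neighboring segment over SLC37A2, chr11:124959118-124963871, had 6.33 in H4 88-1, 6.07 in 42MGBA and 7.85 in 42MGBA 53-1. TMEM218 encodes a ciliary membrane protein and SLC37A2 a sugar-phosphate exchanger.

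The stronger of the TMEM218 and SLC37A2 segments was set over the strongest start segment within a line. This ratio was 0.956 in H4 88-1, 1.22 in 42MGBA and 1.37 in 42MGBA 53-1, and it needs no scaling between lists. It leaves out segments nearer to the start, of which that at -9.76 kb had 6.90 in H4 88-1. 42MGBA alone listed a further contact, 190 to 205 kb upstream of the start within CCDC15, with strengths up to 5.26. Over the interval within 300 kb of PKNOX2 there were 151 anchor pairs, 139 of them in 1 patch. Of the 151, 0 were listed in H4 and 109 in H4 88-1, and 31 in 42MGBA and 121 in 42MGBA 53-1. Of those that touched no PKNOX2 start, 13 of 79 in the H4 system were at least 1.5-fold stronger in H4 88-1, where 2.92% of all pairs were, and 7 of 103 in the 42MGBA system in 42MGBA 53-1, where 0.485% were. None of the 103 was weaker by that factor. In the H4 system none could be, since all 79 were listed in H4 88-1 alone and their ratios are lower bounds. The 2.92% was taken over pairs listed in either line, so that the 2 shares are not like for like.

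**Figure D3:**
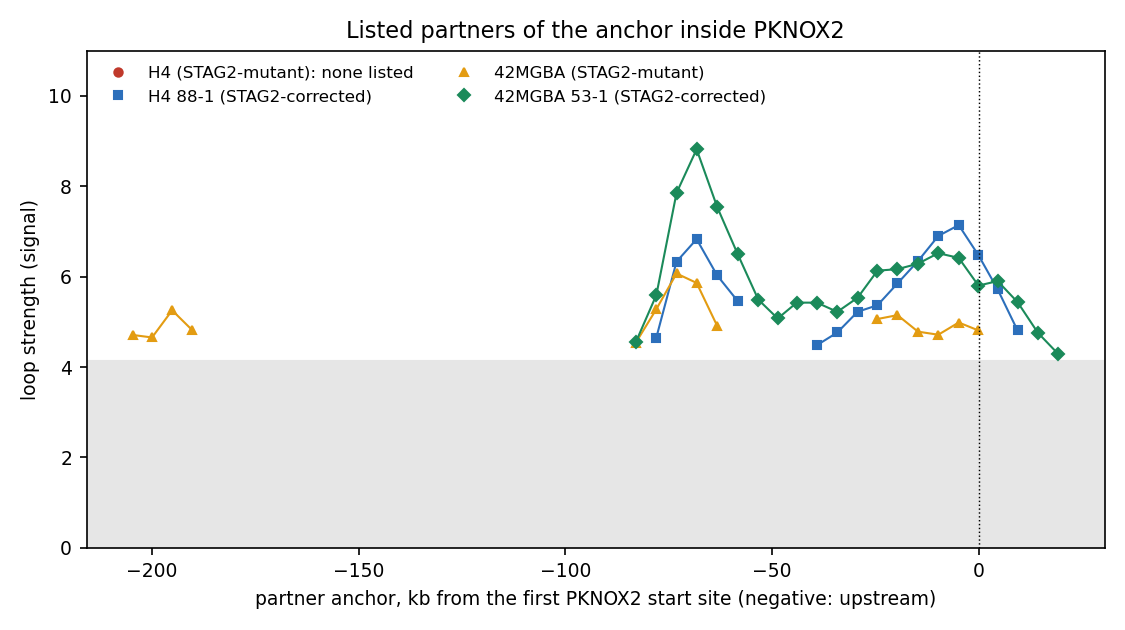
Loop strength (signal, vertical axis) between an anchor inside PKNOX2 and each listed partner, by the distance of the partner from the first PKNOX2 start (kb, horizontal axis, negative upstream). Lines join adjoining listed partners, and grey marks strengths below the weakest in any list. H4 88-1 peaked near the start at 7.14, 42MGBA 53-1 over TMEM218 at 8.82, 42MGBA alone had partners near 200 kb upstream, and H4 had none.

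CTCF stops cohesin at many loop anchors, and its motif core was searched as CCANNAGNNGGC on both strands. It was found in 16.1% of the 128561 listed anchors, in 8.54% on the plus and 8.45% on the minus strand. Neither the PKNOX2 start anchor, nor the anchor before it, nor the inner anchors at chr11:125211713-125221193 held a match, and nor did the TMEM218 and SLC37A2 segments. Of the 26 partners of the inner anchor, 4 held 1 match each. They are shown because 3 lie between the TMEM218 segment and the start of PKNOX2 and 1 lies inside the gene, with the core in capitals and 14 bases on each side.
PKNOX2 upstream, minus strand, core at chr11:124984615-124984626: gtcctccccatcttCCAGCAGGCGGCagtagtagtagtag
PKNOX2 upstream, minus strand, core at chr11:124994256-124994267: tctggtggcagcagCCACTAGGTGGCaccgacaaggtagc
PKNOX2 upstream, minus strand, core at chr11:125011805-125011816: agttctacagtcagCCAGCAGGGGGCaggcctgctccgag
PKNOX2 intron 1, plus strand, core at chr11:125042094-125042105: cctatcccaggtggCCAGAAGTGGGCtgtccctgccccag
These runs were read from hg19 in the direction of the strand named, so that the 3 upstream cores read away from the gene and the 1 inside it reads along it. The segments that hold the 3 upstream cores had strengths of 5.08, 5.43 and 6.13 in 42MGBA 53-1, H4 88-1 listed the last 2 of them, at 4.48 and 5.37, and 42MGBA the last alone, at 5.06. A match is a description of letters and was not tested as a site.

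Genes were ranked by the ratio of the strongest strength at their starts, whichever pair held it, with the lowest listed strength in place of a missing one, so that some ranked values are bounds. For PKNOX2 in the H4 system this set the 7.36 of the main patch against 4.15 in H4, which came from another pair of 456 kb and was close to the lowest listed strength of 4.14. The resulting log2 ratio of 0.83 is thus in effect a lower bound, and 0.806% of 8559 genes had a higher ranked value. The ratio of 0.36 in the 42MGBA system was exceeded by 3.89% of 7970 genes. Of 6510 genes with a pair in both systems, 8 were at or above PKNOX2 in both, PKNOX2 included. The others with a gene symbol were CALM2, MYOZ3, PDGFRB, PLXNA1, SLC2A9 and TSPAN9. The genes whose 4 strengths lay nearest to those of PKNOX2 on the log2 scale were ZC3H18, BANP, EBNA1BP2, ARHGAP4 and NAA10, at Euclidean distances of 0.0964 to 0.195 over the 4 lines. ZC3H18 and BANP had equal strongest values in the 3 lines other than H4, and ARHGAP4 and NAA10 had equal values in all 4 lines.

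PKNOX1 is the widely expressed relative of PKNOX2, listed at chr21:44394620-44454041. No anchor of any list lay within its gene, although 72 pairs spanned it, 55 of them listed in H4 and 61 in H4 88-1, and 25 in 42MGBA and 34 in 42MGBA 53-1. Absence from the lists means a strength below the lowest one listed. The loops of the 2 PKNOX genes could therefore not be compared beyond this.

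MEIS2, a PBX partner with known roles in the eye, heart, palate and striatal neurons, had the largest log2 ratio at a summit pair among the members in the 42MGBA system. The gene, ENSG00000134138.22_12, lies on the minus strand at chr15:37181405-37393500. It had 47 pairs in a single patch of 192 to 259 kb, which joined the 3' end of the gene to its first part and to a stretch before it. The summit pair, chr15:37180437-37185412 with chr15:37425029-37429908, reached 7.89 in H4 and 6.74 in H4 88-1, and 5.44 in 42MGBA and 9.99 in 42MGBA 53-1. Correction of STAG2 went with a weaker loop in the H4 system (log2 ratio -0.23) and a stronger one in the 42MGBA system (0.88, or 1.83-fold, z-score 3.10).

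Of the 23 MEIS2 pairs listed in the H4 system, 17 were weaker in H4 88-1 with a known direction and 3 stronger, while 27.6% of all chromosome 15 pairs were weaker. Of 47 in the 42MGBA system, 40 were stronger in 42MGBA 53-1 and 0 weaker, the other 7 being bounds without a direction, and 49.2% of chromosome 15 pairs were stronger. Only 7 of the 47 were listed in 42MGBA, and these had a median log2 ratio of 0.76. The remaining 40 were listed in 42MGBA 53-1 alone and could not count as weaker. In the H4 system 6 of the 23 were listed in H4 alone and could not count as stronger. The chromosome 15 shares were taken over pairs listed in either line, so that they are not like for like. The widest bound was that of chr15:37180437-37185412 with chr15:37429909-37434708, which had 5.47 in H4, 5.84 in H4 88-1 and 8.37 in 42MGBA 53-1 and was not listed in 42MGBA, so that it was at least 1.87-fold higher in 42MGBA 53-1. By the ranking of strongest strengths, 5 of 7970 genes exceeded MEIS2 in the 42MGBA system, while 89.4% of 8559 genes exceeded it in the H4 system. Anchor pairs of chromosome 15 as a whole had medians of 0.12 and -0.004 in the H4 and 42MGBA systems.

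The MEIS2 loop did not, however, end at the main promoter. Its summit anchors lie 208 kb inside the gene from the first start, over the last exon, and 31.5 kb before that start, where no gene is annotated. The pairs entered by the distance rule largely through the starts of short transcripts near the 3' end, 2.07 kb from the inner summit anchor. When only the first start of each gene was used, 7 MEIS2 pairs were left, all listed in 42MGBA 53-1 alone with strengths of 4.29 to 5.00, and 0 of 45 family pairs in the 42MGBA system were past 1.5-fold. Neither summit anchor held a CTCF core. Seen from the anchor over the 3' end, 14 partners were listed in 42MGBA 53-1, against 7 in H4, 6 in H4 88-1 and 5 in 42MGBA. The strongest partner lay 245 kb away in H4, H4 88-1 and 42MGBA 53-1, and 240 kb away in 42MGBA, where it had 5.59.

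MEIS3, which codes for another MEIS protein and PBX partner, likewise differed in opposite directions in the 2 systems. The gene, ENSG00000105419.18_13, lies on the minus strand at chr19:47906381-47922784. Its loops ran both ways from the same stretch. Toward C5AR1, a complement receptor gene, a patch of 108 to 146 kb had summits of 5.13 in H4 and 5.84 in H4 88-1, and 5.57 in 42MGBA and 4.33 in 42MGBA 53-1. Toward BICRA, a subunit gene of the BAF remodeler, and EHD2, a patch of 263 to 292 kb had 5.38, 7.53, 5.30 and 4.76 in the same order. H4 88-1 was the highest line in both patches and 42MGBA 53-1 the lowest.

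At the summit of the longer MEIS3 patch, chr19:47925739-47930623 with chr19:48198773-48203686, the values were 4.88 in H4 and 7.53 in H4 88-1, a 1.54-fold difference that rests on listed values. They were 4.95 in 42MGBA and 4.50 in 42MGBA 53-1, 1.10-fold lower. All 15 pairs of this patch were stronger in H4 88-1, with 3 of them listed in both lines. All 3 listed in the 42MGBA system, each in both lines, were weaker in 42MGBA 53-1. In the shorter patch 13 of 18 pairs were stronger in H4 88-1 and 3 weaker, with 8 listed in both lines. In 42MGBA 53-1, 0 were stronger and 15 weaker of 15, with 2 listed in both lines. The other pairs are bounds. A pair listed in H4 88-1 alone had to count as stronger there. Likewise, a pair listed in 42MGBA alone had to count as weaker in 42MGBA 53-1. The lowest listed strength was the higher of its system in H4 88-1 and in 42MGBA. Of all chromosome 19 pairs, 64.5% were stronger in H4 88-1, so that the count of the shorter patch there was near the background, and 46.3% were weaker in 42MGBA 53-1. The second pair past 1.5-fold, chr19:47925739-47930623 with chr19:48193907-48198772, was listed in H4 88-1 only, at 6.51. The shared anchor begins 2.96 kb before the first MEIS3 start and overlaps no annotated gene, so that it met the distance rule narrowly.

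MEIS1 is best known as a cofactor of HOXA9 in leukemia and as a regulator of heart and limb growth. It lies on the plus strand at chr2:66660584-66801001 (ENSG00000143995.20_13) and had 15 pairs. One patch of 136 to 150 kb joined its start to the segment just past its 3' end, over LINC01798. Its summit had 4.97 in H4 and 4.94 in H4 88-1, and 6.14 in 42MGBA and 6.28 in 42MGBA 53-1. Within each system the 2 lines differed by 1.01-fold and 1.02-fold, whereas both 42MGBA lines were above both H4 lines. The far anchor held a CTCF core on the minus strand, the only 1 in a MEIS1 summit anchor, which reads toward the gene and is shown for that reason.
MEIS1 far anchor, minus strand, core at chr2:66802621-66802632: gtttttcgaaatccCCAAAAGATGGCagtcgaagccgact

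Longer contacts of MEIS1 were each listed in a single H4 line. A patch of 778 to 793 kb toward LINC01828 and LINC01829 was listed in H4 only, with 5 pairs and a summit of 5.53, at least 1.24-fold above H4 88-1. On the other side a patch of 781 to 786 kb toward LINC02934 was listed in H4 88-1 only, with 2 pairs and a summit of 4.75, at least 1.15-fold above H4. Neither was listed in 42MGBA or 42MGBA 53-1. The start anchor of MEIS1 was thus shared by 3 patches, of which the shortest alone was found in all 4 lines. Pairs that spanned the whole gene, without an anchor in it, numbered 28, of which 26 were listed in H4 and 0 in H4 88-1, and 2 in 42MGBA and 3 in 42MGBA 53-1. The start anchor's next segment, chr2:66661607-66666613, paired with the same far anchor at 4.85 in H4 88-1, 4.85 in 42MGBA and 5.81 in 42MGBA 53-1, which gave the highest MEIS1 log2 ratio of the 42MGBA system, 0.26.

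PBX3 encodes a DNA-binding partner of HOX, MEIS and PKNOX proteins. The gene lies at chr9:128509624-128729656 on the plus strand (ENSG00000167081.18_15) and had 2 pairs, both listed in 42MGBA only. They joined the start of PBX3 with MAPKAP1, a gene for a subunit of the mTORC2 kinase complex, over 189 and 194 kb, with strengths of 4.82 and 4.53. Both were near the lowest listed strength of 4.49, so that 42MGBA 53-1 was at least 1.13-fold and 1.06-fold lower.

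TGIF1, the repressor of the family, had the most pairs, 89, and no pair past 1.5-fold in either system. It lies on the plus strand at chr18:3411606-3459976 (ENSG00000177426.22_14). None of its pairs lay at its first start; all used the downstream cluster of starts. The upstream patch, 136 to 195 kb toward MYL12B, had summits of 7.11 in H4 and 6.51 in H4 88-1, and 6.46 in 42MGBA and 6.93 in 42MGBA 53-1. The 2 other large patches reached downstream into DLGAP1. The nearer, of 122 to 161 kb, had summits of 9.36, 7.94, 8.96 and 8.65, and the farther, of 191 to 230 kb, had 7.27, 9.54, 7.20 and 6.96.

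In H4 88-1 the order of the 2 downstream TGIF1 patches was the reverse of that in the other 3 lines. The farther over the nearer summit was 0.777 in H4 and 1.20 in H4 88-1, and 0.803 in 42MGBA and 0.804 in 42MGBA 53-1. This ratio is taken within a list and does not depend on how lists are scaled. The pair with the lowest ratio of the H4 system, chr18:3447940-3452944 with chr18:3599297-3604279, belonged to the nearer patch and had 7.95 in H4 and 5.42 in H4 88-1 (log2 ratio -0.55). The pair with the highest, chr18:3457637-3462645 with chr18:3663074-3668087, belonged to the farther patch and had 4.89 in H4 and 7.05 in H4 88-1 (0.53). Of the pairs in the nearer patch, 16 of 24 were weaker and 8 stronger in H4 88-1, and of those in the farther patch 16 of 24 were stronger and 5 weaker. Of all chromosome 18 pairs 58.3% were stronger and 32.4% weaker in H4 88-1, so that the count of the farther patch was near the background. Seen from the start anchor, the nearer peak stood at 146 kb in H4, at 9.36, and at 142 kb in H4 88-1, at 7.72. The farther peak stood at 210 kb in H4, at 7.27, and at 215 kb in H4 88-1, at 9.54. The 42MGBA system showed no such turn, with median log2 ratios of 0.05 and 0.09. DLGAP1 encodes a scaffold protein of the postsynaptic density. Both downstream summit anchors lie in it without a coding-gene exon, whereas the far sides of both patches do overlap DLGAP1 exons. The TGIF1 start anchor chr18:3447940-3452944 held a CTCF core on the minus strand at chr18:3452357-3452368, and neither downstream summit anchor held one.

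**Figure D4:**
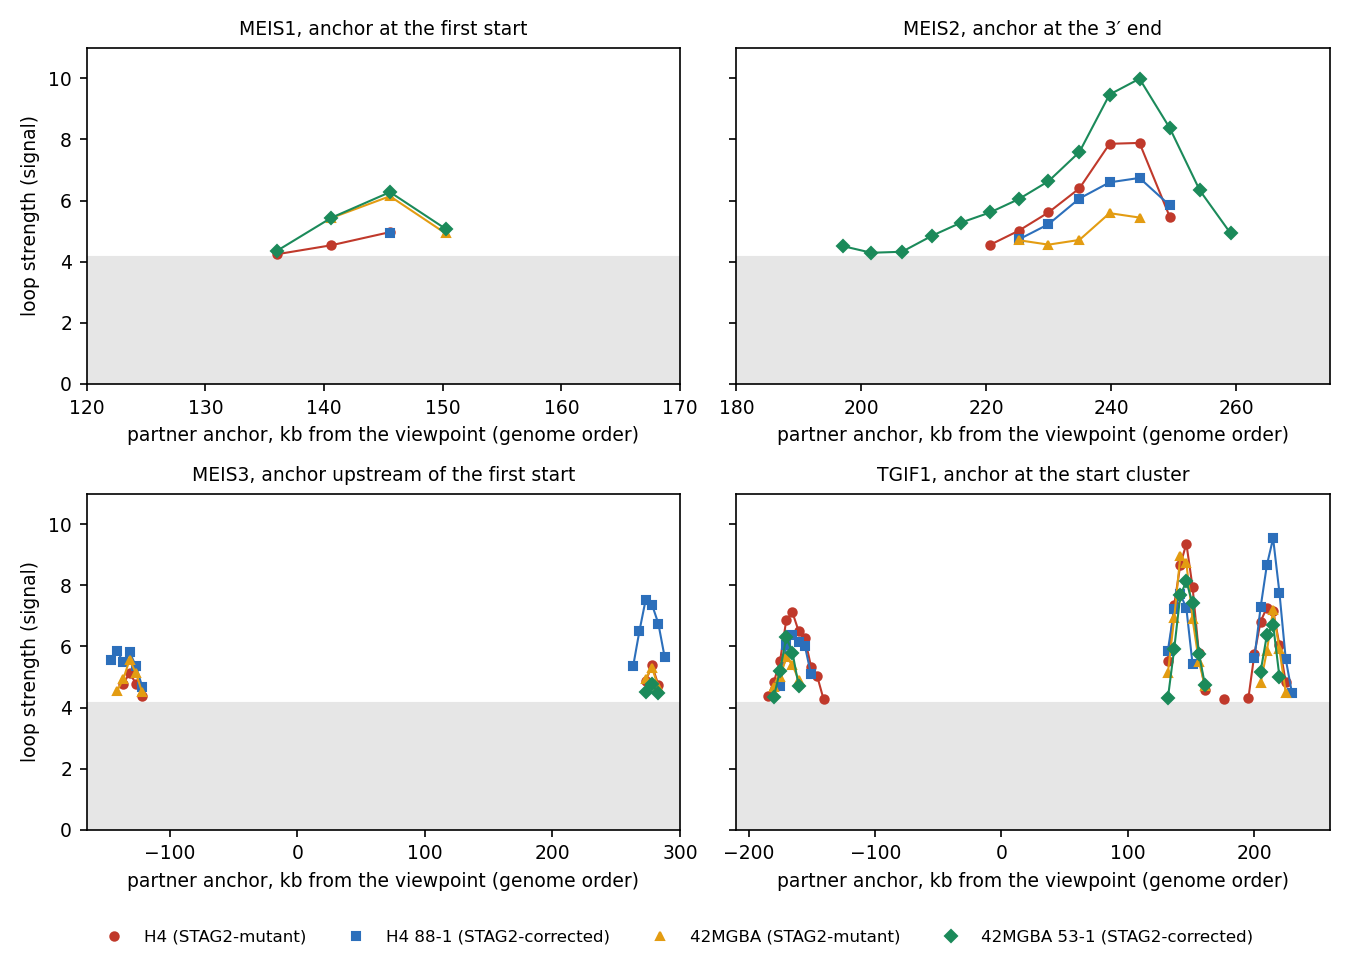
Loop strength (signal, vertical axis) between 1 anchor of MEIS1, MEIS2, MEIS3 and TGIF1 and each listed partner, by distance from that anchor in genome order (kb, horizontal axis). Lines join adjoining listed partners, grey marks strengths below the weakest in any list, and the 2 long MEIS1 patches fall outside the axis. The MEIS2 curves separate the 4 lines (9.99 to 5.59 at their peaks), and the TGIF1 curve of H4 88-1 alone peaks at the farther of the 2 downstream partners.

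Among other TALE genes, the Iroquois gene IRX5 was listed in the STAG2-mutant lines only, up to 5.11 in H4 and 5.34 in 42MGBA. IRX3 was listed in 42MGBA alone, up to 4.73. MKX and PBX2 were listed in 42MGBA 53-1 alone, up to 4.48 and 4.63. PBX4, TGIF2, TGIF2LX, TGIF2LY, IRX1, IRX2, IRX4 and IRX6 had no listed pair.

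Of the loops found in both systems, the main PKNOX2 patch was higher at its strongest pairs in both STAG2-corrected lines. The log2 ratio there was at least 0.83 in the H4 system and 0.36 to 0.37 in the 42MGBA system. Over all pairs of that patch, mostly bounds, the medians were 0.42 and 0.13. The summit pair of the nearer downstream TGIF1 patch was lower in both STAG2-corrected lines, with log2 ratios of -0.37 and -0.10. In the 42MGBA system that TGIF1 pair stood apart from its patch, where 17 of 25 pairs were stronger in 42MGBA 53-1 and 7 weaker, beside 41.9% and 48.8% of chromosome 18 pairs. MEIS2 was lower in H4 88-1 and higher in 42MGBA 53-1, and MEIS3 the reverse, with median log2 ratios of 0.18 and -0.16. The MEIS3 median of the H4 system was near the 0.13 of all chromosome 19 pairs. It fell to 0.05 with the chromosome median and to 0.03 with the size-matched median subtracted. That of the 42MGBA system was -0.13 with either subtracted. The difference between systems was not tested. The signs at the summit pairs of PKNOX2, MEIS2, the longer MEIS3 patch and the nearer TGIF1 patch held when the genome-wide, the chromosome or the size-matched median was subtracted, whereas the MEIS1 median of 0.03 in the H4 system turned to -0.07 with the genome-wide median subtracted.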

How the data were processed

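Hi-C libraries of 8 samples, 2 per cell line, were used. Reads were trimmed by the authors and mapped with bowtie (hg19), after which they removed duplicates, assigned pairs to anchors of about 5 kb, corrected biases with HiCorr and enhanced the matrix with DeepLoop. Each deposited list gives a signal, called loop strength here, of the top 300000 anchor pairs in 1 line, replicates pooled. No reads per pair are given, so depth and counting error are unknown. The 12 RNA-seq samples were not analysed here.

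The members and gene lists were chosen with earlier results of these data known. Starts came from GENCODE release 44 on GRCh37, and all 24 chromosomes of the lists fitted its lengths. Pairs within 3 kb of a member's start were kept, log2 ratios were taken against the lowest listed strength where a pair was missing, neighbors within 10 kb were joined, and the z-score was the centred and scaled residual of a regression through the origin. The named genes were all members, other TALE genes (not all are reported here), partners of their strongest pairs and the 5 genes nearest to PKNOX2. The fold and z-score steps were tried on a noisy copy of the H4 list with planted 2-fold changes. No pair was missing from that copy, so the handling of bounds was not tested. Alternatives changed missing values, distance, start, scaling, cutoff and merging. Python 3.11.15, numpy, pandas, scipy and matplotlib were used.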

Additional observations from a re-analysis of the deposited data

Results flagged for a closer look

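Each system contributes 1 ratio of 2 pooled lists, so that the differences between systems given here were not tested. They stand out because the summit of a loop patch, listed in all 4 lines, was stronger in 1 STAG2-corrected line and weaker in the other, also with the genome-wide, chromosome or size-matched median subtracted. At MEIS2 the log2 ratio was -0.23 in the H4 system and 0.88 in the 42MGBA system, a difference of -1.10. For the longer MEIS3 patch it was 0.63 and -0.14, a difference of 0.76. At the farther downstream TGIF1 patch it was 0.41 and -0.10, a difference of 0.51, and at the upstream TGIF1 patch -0.16 and 0.11, a difference of -0.26. At the MEIS1 patch of 136 to 150 kb it was -0.01 and 0.03, a difference of -0.039 that is small beside the others.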

How the results depend on the processing

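With 1 pooled list per line, no replicate could be left out and no spread can be given. No paired analysis was possible because the result comes from no test. The counts past 1.5-fold rest mostly on bounds. Against 9 family pairs stronger in H4 88-1, there were 33 at the lower fold cutoff tried, 0 at 2-fold, 1 with pairs listed in both lines only, 58 with missing pairs at 0.5 of the lowest strength, 4 with the genome-wide and 4 with the chromosome median subtracted and 2 with the size-matched median. Against 0 weaker, these gave 5, 0, 0, 38, 1, 1 and 2. Against 8 stronger in 42MGBA 53-1 they gave 29, 0, 5, 84, 14, 13 and 12, and against 0 weaker they gave 3, 0, 0, 18, 0, 0 and 0. With the first start of each gene only, a choice made after seeing the data, the counts stronger were 9 in H4 88-1 and 0 in 42MGBA 53-1, since the MEIS2 pairs leave by construction. Past the z-score cutoff, the 0 stronger in H4 88-1 became 2 with log2 ratios, 2 and 5 with 200000 and 300000 pairs merged and 1 at a 0.1 cutoff, and the 0 weaker became 1 and 4 with 200000 and 300000 merged and 1 at 0.1. The 8 stronger in 42MGBA 53-1 became 5 with an intercept, 5 with 50000 and 18 with 300000 merged and 4 at a 0.01 cutoff, and the 0 weaker remained 0 in every setting. The family median log2 ratio of the 42MGBA system rose from 0.06 to 0.36 when limited to the merged strongest pairs. It fell to -0.002 with first starts only and to -0.009 with neighbors joined. The family median of the H4 system, 0.09, ran from -0.07 with the size-matched median subtracted to 0.23 with first starts only, within the SD of 0.25 over pairs. Of 91 alternative gene medians, 77 moved by less than the SD over that gene's pairs. That SD is over pairs that are not independent and is no error of a median. Of 78 alternative family medians and counts, 45 kept their size. For a median this meant a move below the SD, and for a count a change of at most 1.5-fold.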
